A study of Mus musculus with 10 samples.

Results

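The genes described here encode 8 of the enzymes on the route from acetyl-CoA through mevalonate to squalene: Acat2, Hmgcs1, Mvk, Pmvk, Mvd, Idi1, Fdps and Fdft1. They were chosen by name, as steps of the pathway, and not by their signals, though earlier results of these data were known. They are not the whole route. Each gene was read from the array probe sets annotated to that gene alone. Of the 8 genes, 7 had such probe sets, 18 in all among the 45037 probe sets and 18193 genes tested. Acat2, which encodes the cytosolic acetoacetyl-CoA thiolase, was not analysed here. For each gene the probe set of highest mean log2 signal over the 10 tumors was taken as the main one, and the others are given beside it.

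The tumors were spontaneous mammary tumors of female FVB/N-Tg(MMTVneu) mice (Tg-neu), in which the MMTV promoter drives the neu proto-oncogene mainly in mammary epithelium. All the mice carried this transgene, and their ages are not given in the sources used here. The Lov group (A19, A48, A50, A55 and AB10) came from mice that received lovastatin intraperitoneally at 10 mg/kg, 3 times a week for 6 weeks from the detection of their first tumor. The Vhcl group (A45, A49, A54, A59 and AB11) came from mice given the ethanol vehicle on the same schedule. Values given tumor by tumor keep this order within each group. RNA of each tumor was hybridized to 1 mouse whole-genome Affymetrix array, so the signal is that of tumor cells, vessels, stroma and leukocytes together, and fewer cells of a type and less RNA per cell cannot be told apart. The labels name 5 mice in each group and do not say which tumor came from which mouse, so the p-values measure the spread between these tumors.

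Lovastatin, a statin, blocks the formation of mevalonate. The enzymes that follow phosphorylate and decarboxylate mevalonate to isopentenyl diphosphate, isomerize this unit and join it into farnesyl diphosphate, from which squalene is made for cholesterol, while other branches use the same intermediates for protein prenylation, dolichol and ubiquinone. When sterols run low in the endoplasmic reticulum, the factor SREBP-2 is cleaved and carried to the nucleus, where it raises transcription of these enzymes, and cultured cells and liver given a statin are known for this response. The comparison of Lov- with Vhcl-treated tumors gives the transcript levels of these genes in tumors after 6 weeks of intermittent dosing.

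None of the 7 genes differed between Lov- and Vhcl-treated tumors beyond the spread between tumors. By limma, 0 of the 7 were higher with Lov at an unadjusted p under 0.05, where 3.50% of all genes were, and 0 were lower, where 2.75% of all genes were. At an FDR of 0.05 (Benjamini-Hochberg) the count was 0 among these 18 probe sets and 0% among all those tested (limma, lowest adjusted p over all probe sets = 0.369). The groups overlapped in each of the 7 genes, and 0.693% of all genes showed no overlap. The difference of Lov minus Vhcl was positive for Mvk and Idi1 and negative for Hmgcs1, Pmvk, Mvd, Fdps and Fdft1, and for each gene but Mvk the sign turned under at least 1 other setting. Their median log2 difference was -0.02, against 0.00 over all genes, and the median of the absolute differences was 0.12, against 0.12 over genes with a mean signal at or above the median gene. By the main probe sets the SD was smaller with Lov in 6 of the 7 genes, all but Mvk, where 59.4% of all genes showed this. For Pmvk the log2 ranges were close, at 0.44 with Lov and 0.50 with Vhcl. Vhcl A59 was the highest tumor in the same 6 genes, and the share of all genes highest in this tumor is not given here.

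**Figure D1:**
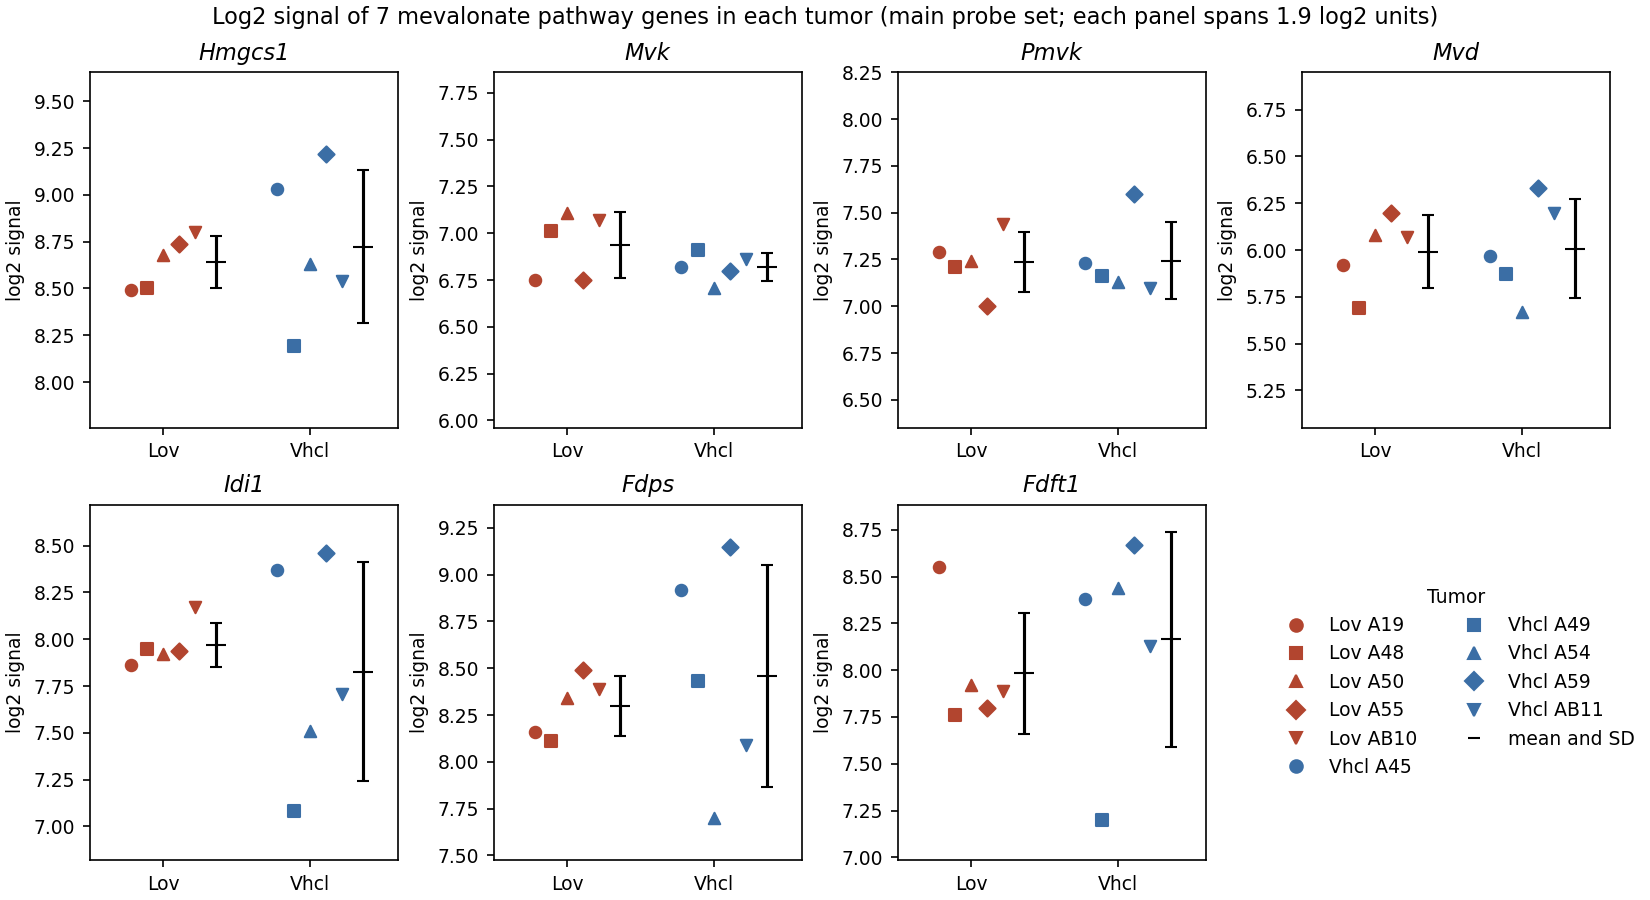
Log2 signal (vertical axis, 1.9 log2 units in each panel) of the main probe set of 7 mevalonate pathway genes, with 1 symbol per tumor, Lov-treated on the left of each panel and Vhcl-treated on the right, and a black bar for the mean and SD of 5 tumors. The groups overlap in each panel, and Idi1 runs between 7.86 and 8.17 with Lov and between 7.08 and 8.46 with Vhcl.

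The promoters of Hmgcs1 and Idi1 are shown because these were the 2 genes whose signals varied most alike over the tumors, and that of Mvk because its correlations with the others were the lowest. Each line is the 250 bases just before the annotated start site, upstream of the first exon, from RefSeq (mouse GRCm38.p6, all on the plus strand). Windows were matched for 6 of the 8 genes. Capitals mark the motifs searched on both strands, namely the SREBP element TCACNCCAC, the NF-Y element CCAAT and the Sp1 element GGGCGG, each read forward or as its reverse complement, and none of the marked matches overlap.
Hmgcs1, chr13:119690101-119690350: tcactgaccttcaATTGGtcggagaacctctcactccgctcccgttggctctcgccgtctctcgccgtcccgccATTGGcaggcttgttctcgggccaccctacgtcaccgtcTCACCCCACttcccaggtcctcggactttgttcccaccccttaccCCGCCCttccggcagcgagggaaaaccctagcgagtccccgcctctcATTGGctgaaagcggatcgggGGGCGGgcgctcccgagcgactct
Idi1, chr13:8885356-8885605: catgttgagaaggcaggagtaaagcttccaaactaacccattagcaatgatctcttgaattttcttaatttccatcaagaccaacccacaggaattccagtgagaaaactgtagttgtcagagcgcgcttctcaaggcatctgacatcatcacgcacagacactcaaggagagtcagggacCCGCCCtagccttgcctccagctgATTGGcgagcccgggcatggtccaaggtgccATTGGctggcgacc
Mvk, chr5:114444019-114444268: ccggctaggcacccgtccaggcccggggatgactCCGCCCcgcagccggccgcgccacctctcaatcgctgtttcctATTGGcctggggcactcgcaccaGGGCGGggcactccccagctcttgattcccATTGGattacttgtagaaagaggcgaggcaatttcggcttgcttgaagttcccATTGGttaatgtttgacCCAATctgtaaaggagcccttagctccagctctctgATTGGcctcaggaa
The Hmgcs1 window held 1 SREBP element, at -137 to -129 from the start site, with 3 NF-Y and 2 Sp1 elements. The Idi1 window held 2 NF-Y elements and 1 Sp1 element, and the Mvk window 5 NF-Y and 2 Sp1 elements. No SREBP element was found in the Idi1 and Mvk windows or in those of Acat2, Pmvk and Mvd, which are not printed. Among the 32851 RefSeq windows of this length, 1.05% held the SREBP element, 33.8% the NF-Y element and 32.7% the Sp1 element. A match is a run of letters in these windows and not a measured binding site.

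Hmgcs1 encodes the cytosolic HMG-CoA synthase, which makes the precursor of mevalonate. Its main probe set (1433443_a_at) had log2 signals of 8.49, 8.50, 8.68, 8.74 and 8.80 in the 5 Lov-treated tumors. They were 9.03, 8.19, 8.63, 9.22 and 8.54 in the 5 Vhcl-treated tumors. All 5 Lov-treated tumors thus lay between the lowest Vhcl-treated tumor, A49, and the next to highest, A45. The means were 8.64 ± 0.14 with Lov and 8.72 ± 0.41 with Vhcl (SD, n = 5 each), a log2 difference of -0.08 (standard error 0.18, 95% confidence interval -0.46 to 0.30; limma, adjusted p = 0.993). The exact permutation test of the same difference gave a 2-sided p = 0.722, where the smallest p that 5 tumors against 5 allow is 0.00794. Of the other 4 probe sets of Hmgcs1, 3 had mean log2 signals of 6.43 to 8.39, differences of -0.23 to -0.01 and r of 0.844 to 0.933 with the main one over the 10 tumors. The remaining one (1441536_at) had a mean of 3.16, below the array medians of 4.97 to 5.05, and r of 0.463.

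Mvk encodes mevalonate kinase, the first enzyme after mevalonate. Its log2 signals (1418052_at) were 6.75, 7.01, 7.11, 6.75 and 7.07 in the 5 Lov-treated tumors. They were 6.82, 6.91, 6.71, 6.80 and 6.86 in the 5 Vhcl-treated tumors. By the main probe sets, Mvk alone of the 7 genes was more spread among the Lov-treated tumors. There A48, A50 and AB10 lay above every Vhcl-treated tumor and A19 and A55 lay within the Vhcl range. The log2 difference was 0.12 (standard error 0.10, 95% confidence interval -0.10 to 0.34; limma, adjusted p = 0.986), with an exact permutation p of 0.206, 2-sided. The second probe set (1430619_a_at) followed the main one weakly over the tumors (r = 0.152), with a difference of 0.01. Its SD was smaller with Lov, at 0.097 against 0.153 with Vhcl, the reverse of the main one.

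Pmvk and Mvd encode phosphomevalonate kinase and the decarboxylase that forms isopentenyl diphosphate. Pmvk (1427893_a_at) had log2 signals of 7.29, 7.21, 7.24, 7.00 and 7.44 in the 5 Lov-treated tumors. They were 7.23, 7.16, 7.13, 7.60 and 7.10 in the 5 Vhcl-treated tumors. Vhcl A59 stood above the other Vhcl-treated tumors, which spanned only 7.10 to 7.23, and the log2 difference was -0.01 (standard error 0.12, 95% confidence interval -0.27 to 0.25; limma, adjusted p = 0.998). Mvd (1448663_s_at) had log2 signals of 5.92, 5.69, 6.08, 6.20 and 6.07 in the same Lov-treated tumors, against 5.97, 5.87, 5.67, 6.33 and 6.20 in the same Vhcl-treated tumors. Its lowest and its highest value were both in Vhcl-treated tumors, A54 and A59. The log2 difference of Mvd was -0.02 (standard error 0.14, 95% confidence interval -0.32 to 0.29; limma, adjusted p = 0.998), and that of its second probe set (1417303_at, r = 0.477 with the main one) was 0.05. The name of the main Mvd probe set marks it as shared between transcripts. The exact permutation p was 0.960 for Pmvk and 0.921 for Mvd, 2-sided.

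Idi1 encodes isopentenyl diphosphate isomerase, which makes the allylic unit that starts chain growth. Its log2 signals (1451122_at) were 7.86, 7.95, 7.92, 7.94 and 8.17 in the 5 Lov-treated tumors. They were 8.37, 7.08, 7.51, 8.46 and 7.71 in the 5 Vhcl-treated tumors. The Lov-treated tumors spanned a 1.24-fold range, and they fell into a gap left by the Vhcl-treated tumors, of which 2 lay above them and 3 below in a 2.60-fold range. The log2 difference was 0.14 (standard error 0.23, 95% confidence interval -0.37 to 0.65; limma, adjusted p = 0.989). The exact permutation test gave p = 0.619, 2-sided. The second probe set (1423804_a_at) ran with the main one over the 10 tumors (r = 0.835), spanned a 1.59-fold range with Lov and a 3.94-fold range with Vhcl, and had a log2 difference of 0.04.

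Fdps encodes farnesyl diphosphate synthase, whose product feeds squalene, protein farnesylation and the longer prenyl chains. Its log2 signals (1423418_at) were 8.16, 8.11, 8.34, 8.49 and 8.39 in the 5 Lov-treated tumors. They were 8.92, 8.43, 7.70, 9.15 and 8.09 in the 5 Vhcl-treated tumors. The lowest Vhcl-treated tumor was here A54 and not A49, and the ranges were 1.30-fold with Lov and 2.73-fold with Vhcl. The log2 difference was -0.16 (standard error 0.24, 95% confidence interval -0.68 to 0.36; limma, adjusted p = 0.988), with an exact permutation p of 0.563, 2-sided. The second probe set (1438150_at) had a mean log2 signal of 2.89, below the array medians, and did not follow the main one (r = 0.032).

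Fdft1 encodes squalene synthase, the first enzyme committed to sterols. Its log2 signals (1438322_x_at) were 8.55, 7.76, 7.92, 7.80 and 7.89 in the 5 Lov-treated tumors. They were 8.38, 7.20, 8.44, 8.67 and 8.13 in the 5 Vhcl-treated tumors. Lov A19 stood above the other Lov-treated tumors, Vhcl A49 lay below all others, and the remaining 4 Vhcl-treated tumors lay above 4 of the 5 Lov-treated ones. The log2 difference was -0.18 (standard error 0.25, 95% confidence interval -0.74 to 0.38; limma, adjusted p = 0.988), with an exact permutation p of 0.548, 2-sided. Without Vhcl A49 it was -0.42 (limma, unadjusted p = 0.0335), which made Fdft1 the 1 gene of the 7 past that threshold in any of the 10 leave-one-out fits. The probe sets of Fdft1 did not vary as one, and the name of the main one marks probes that may match other transcripts. Over the tumors, r with the main probe set was 0.707 for 1448130_at, 0.383 for 1438919_x_at and -0.265 for 1438918_at. Their log2 differences of -0.15, -0.19 and -0.15 had the sign of the main one, and 1438919_x_at had the lowest p of the 18 probe sets (limma, unadjusted p = 0.117 and adjusted p = 0.971; exact permutation test, 2-sided p = 0.0794).

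**Figure D2:**
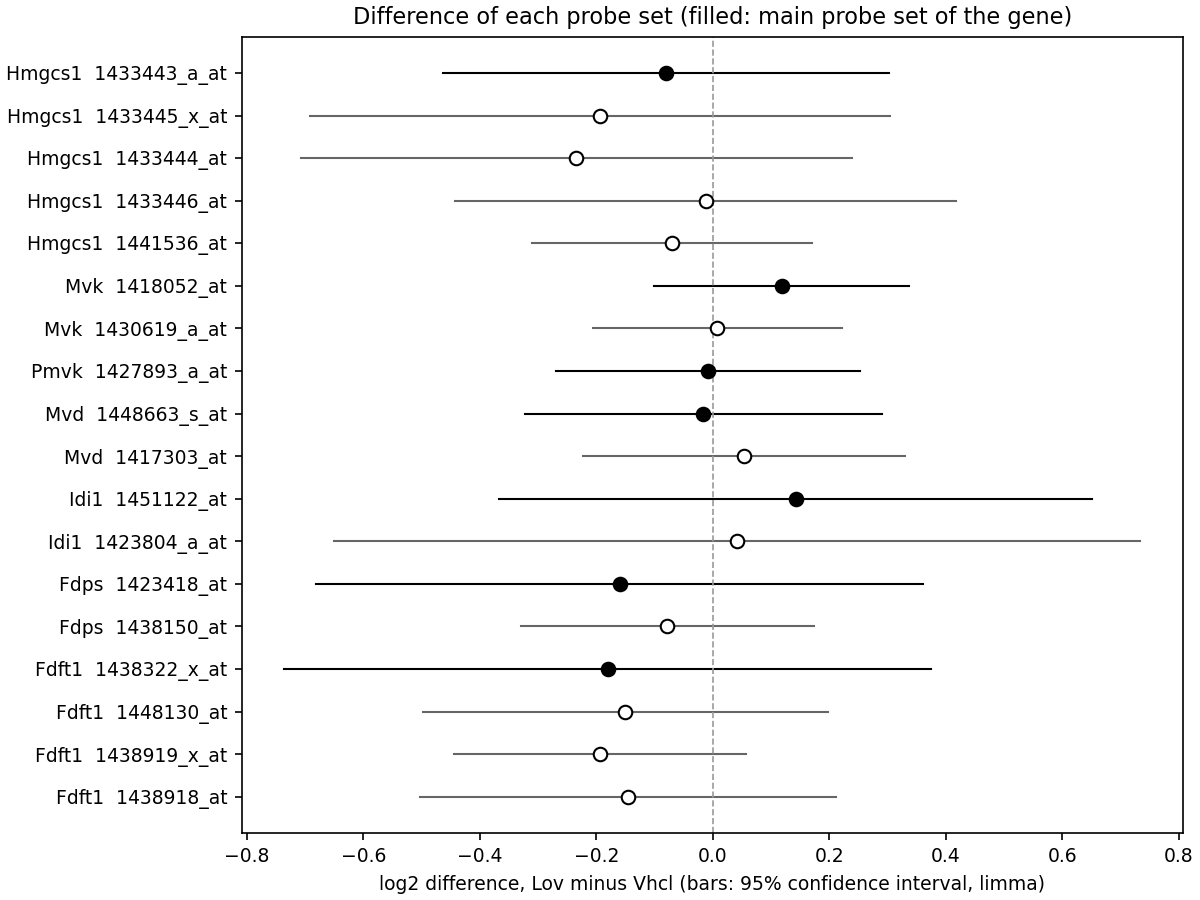
Log2 difference of Lov minus Vhcl (horizontal axis) for the 18 probe sets of 7 mevalonate pathway genes (rows), with limma's 95% confidence interval as a bar; filled points are the main probe set of a gene. The intervals of all 18 probe sets include 0, with 5 positive and 13 negative differences.

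The intervals set how large a difference these arrays leave room for. On the linear scale the ratio of Lov over Vhcl was 0.946 for Hmgcs1, with a 95% confidence interval of 0.725 to 1.23. It was 1.10 for Idi1, with an interval of 0.776 to 1.57, and 0.895 for Fdps, with an interval of 0.624 to 1.28. A 2-fold difference in either direction lay outside the intervals of the 7 main probe sets. It also lay outside those of the other 11, but these include 1441536_at of Hmgcs1 and 1438150_at of Fdps. With mean log2 signals of 3.16 and 2.89, below the array medians, their narrow intervals set no limit on the transcript. For Fdft1, whose interval was the widest of the main probe sets on the log2 scale, the ratio was 0.883, with an interval of 0.601 to 1.30.

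The Lov-treated tumors resembled each other more than the Vhcl-treated tumors did in most of these genes. The range of the Lov-treated tumors lay within that of the Vhcl-treated tumors in 5 of the 7 genes (Hmgcs1, Mvd, Idi1, Fdps and Fdft1), where 27.0% of all genes showed this. The SD was smaller with Lov in 6 of the 7 genes, all but Mvk, where 59.4% of all genes showed this. The median ratio of the SD with Lov over that with Vhcl was 0.565 over the 7 genes, 0.864 over all genes and 0.766 over genes with a mean signal at or above the median gene. The smallest ratio was that of Idi1, with an SD of 0.12 with Lov against 0.58 with Vhcl. These counts use the main probe sets, and by the second probe sets of Mvk and Mvd the order of the SDs was turned. The SD was 0.097 with Lov against 0.153 with Vhcl for Mvk, and 0.231 against 0.163 for Mvd. Several of the genes varied together, so these counts do not stand for 7 separate observations, and no test of the difference in spread was made.

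The counts of spread rested on a few Vhcl-treated tumors. Without Vhcl A49, which was lowest in Hmgcs1, Idi1 and Fdft1, the Lov range lay within the Vhcl range in 3 of the 7 genes (19.9% of all genes), and the SD was smaller with Lov in 5 of 7 (55.2% of all genes). Without Vhcl A59 these counts were 4 (20.8% of all genes) and 5 (55.7%). Without both tumors they were 3 (13.4% of all genes) and 4 (49.8%). Over all probe sets, r between arrays was 0.981 to 0.990 among Lov-treated and 0.972 to 0.980 among Vhcl-treated tumors, so the narrower spread with Lov was not limited to the mevalonate genes.

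**Figure D3:**
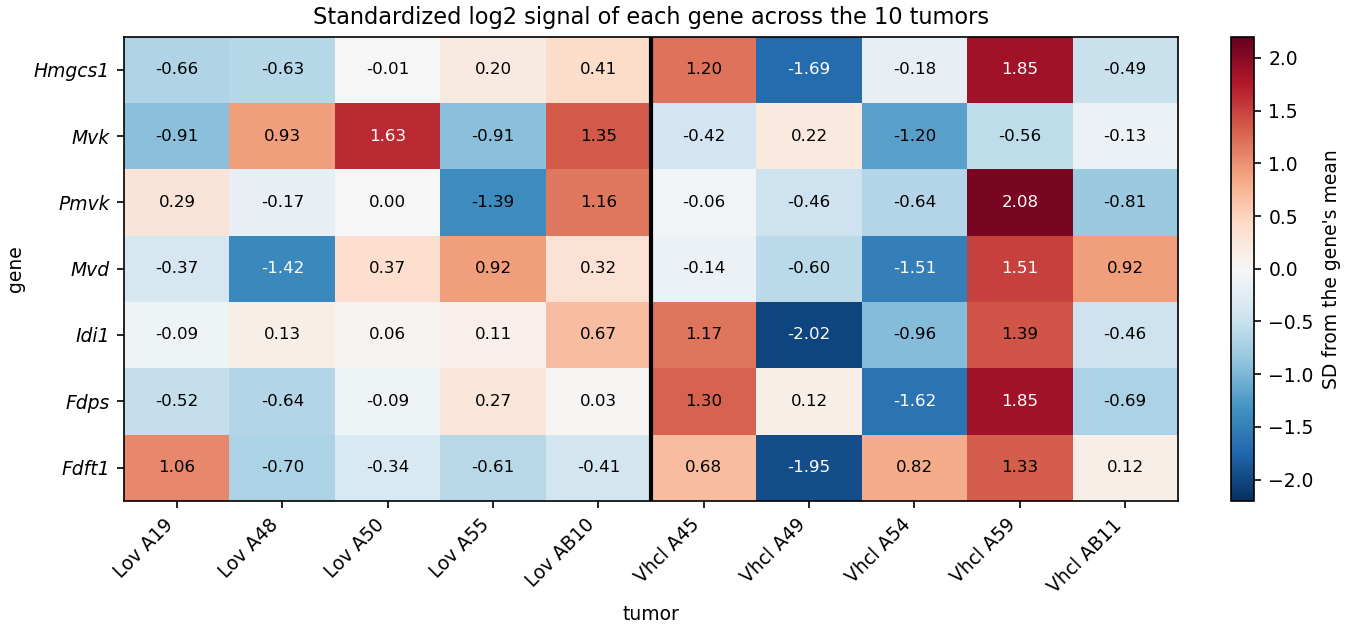
Standardized log2 signal (color and printed value, in SD from the gene's mean over 10 tumors) of 7 mevalonate pathway genes (rows) in each tumor (columns), with the Lov-treated tumors left of the black line and the Vhcl-treated tumors right of it. Vhcl A59 is the highest tumor in 6 rows, and the row of Mvk is highest in Lov A50 (1.63).

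Vhcl A59 was the highest of the 10 tumors for Hmgcs1, Pmvk, Mvd, Idi1, Fdps and Fdft1, and its mean standardized signal over the 7 genes was 1.35 SD. It was followed by Vhcl A45 (0.53) and Lov AB10 (0.50), and the lowest were Vhcl A54 (-0.75) and Vhcl A49 (-0.91). The other Lov-treated tumors lay between -0.36 and 0.23. The excess of 3' over 5' signal on the beta-actin control probe sets, a log2 difference that is larger in degraded RNA, was 0.67 to 1.07 in Lov-treated and 0.80 to 1.35 in Vhcl-treated tumors, highest in Vhcl A59. Over the 10 tumors, r of this measure with the mean of the 7 genes was 0.339 (rho = 0.152), and -0.329 without Vhcl A49 and Vhcl A59. With it as a covariate the log2 differences of Hmgcs1, Pmvk, Mvd and Fdft1 were 0.01, 0.10, 0.01 and 0.06, positive instead of negative, and none of these passed the test (limma, lowest unadjusted p = 0.412).

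Over the 10 tumors most pairs of the genes had a positive correlation, and within the Lov group fewer did. Of the 21 pairs among the 7 genes, 18 had a positive Pearson's r over the 10 tumors, with a median of 0.483, where 54.6% of the pairs among genes with a mean signal at or above the median gene were positive. Within the groups, which hold 5 tumors each and give r as a description only, 12 of the 21 pairs were positive among Lov-treated tumors (median r 0.204, against 59.3% of pairs positive over those genes) and 17 among Vhcl-treated tumors (median r 0.605, against 50.8%). Among Lov-treated tumors 5 of the 6 pairs with Fdft1 were negative, as with Hmgcs1 (-0.492) and Idi1 (-0.444), whereas among Vhcl-treated tumors these 2 pairs had r of 0.869 and 0.803. Lov A19 had the highest Fdft1 signal of the Lov-treated tumors (8.55, against 7.76 to 7.92) and the lowest Hmgcs1 (8.49) and Idi1 (7.86). The negative r of these 2 pairs thus leaned on 1 tumor, and r within Lov without it was not computed. Without Lov A19, r of Hmgcs1 with Fdft1 over the other tumors of both groups was 0.812. The difference between the groups in these correlations was not tested. By permutation, 5 pairs had an unadjusted p under 0.05, and 1 passed after Benjamini-Hochberg adjustment over the 21 pairs. This was Hmgcs1 with Idi1, one enzyme before and one after mevalonate (r = 0.894, permutation p = 0.00102, adjusted p = 0.0214; Spearman's rho = 0.806, permutation p = 0.00766, adjusted p = 0.161). With the group means removed r of this pair was 0.947 (permutation p = 0.00359, adjusted p = 0.0754), and among the 8 tumors with ID prefix A it was 0.893. It was 0.696 within Lov and 0.974 within Vhcl. Prefix AB holds 1 tumor per group, too few for a value. Without Vhcl A49 and Vhcl A59, the tumors farthest from the median of Hmgcs1, r was 0.734 (permutation p = 0.0419, adjusted p = 0.293). Its adjusted p was 0.0584 without Lov AB10, 0.125 without Vhcl A45 and 0.101 without Vhcl A59, with r of 0.895, 0.872 and 0.870.

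Fdps also ran with these genes, without passing after adjustment over the 21 pairs. Over the 10 tumors r was 0.689 with Hmgcs1 (permutation p = 0.0283; rho = 0.600, permutation p = 0.0741) and 0.635 with Idi1 (permutation p = 0.0478; rho = 0.624, permutation p = 0.0605), each with an adjusted p of 0.201, and among the 8 tumors with ID prefix A it was 0.685 and 0.643. Vhcl A49 was low in Hmgcs1 and Idi1 and not in Fdps. Without it r was 0.889 for Hmgcs1 with Fdps (adjusted p = 0.0162 by permutation) and 0.946 for Idi1 with Fdps (adjusted p = 0.00525 by permutation). Without Vhcl A59, the highest tumor for all 3 genes, r was 0.461 and 0.479 (adjusted p = 0.602 by permutation for each). The other pairs under 0.05 were Hmgcs1 with Fdft1 (r = 0.646, permutation p = 0.0435; rho = 0.394, permutation p = 0.262) and Mvd with Fdps (r = 0.632, permutation p = 0.0475; rho = 0.517, permutation p = 0.129), with an adjusted p of 0.201 for each r. For these pairs r was 0.694 and 0.785 among tumors with ID prefix A, and 0.024 and 0.340 without the 2 tumors farthest from the median.

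Mvk stood apart from the rest. Its r with the other 6 genes ran from -0.514, with Fdft1, to 0.226, with Pmvk, with a median of 0.00, whereas the medians of the other genes were 0.309 to 0.611. None of the pairs with Mvk passed the test (lowest permutation p = 0.13, rho = -0.541). Its range over the 10 tumors was 1.32-fold, against 1.52-fold to 2.77-fold for the other 6 genes. The correlations over all pairs rested on a few tumors. Without the 2 tumors farthest from the median of each pair's first gene the median r over the 21 pairs was 0.155, and without Vhcl A59 it was 0.194. Hmgcs1 with Fdps and Idi1 with Fdps had r of 0.793 and 0.919 without the 2 farthest tumors (permutation p = 0.0223 and 0.00371, unadjusted).

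**Figure D4:**
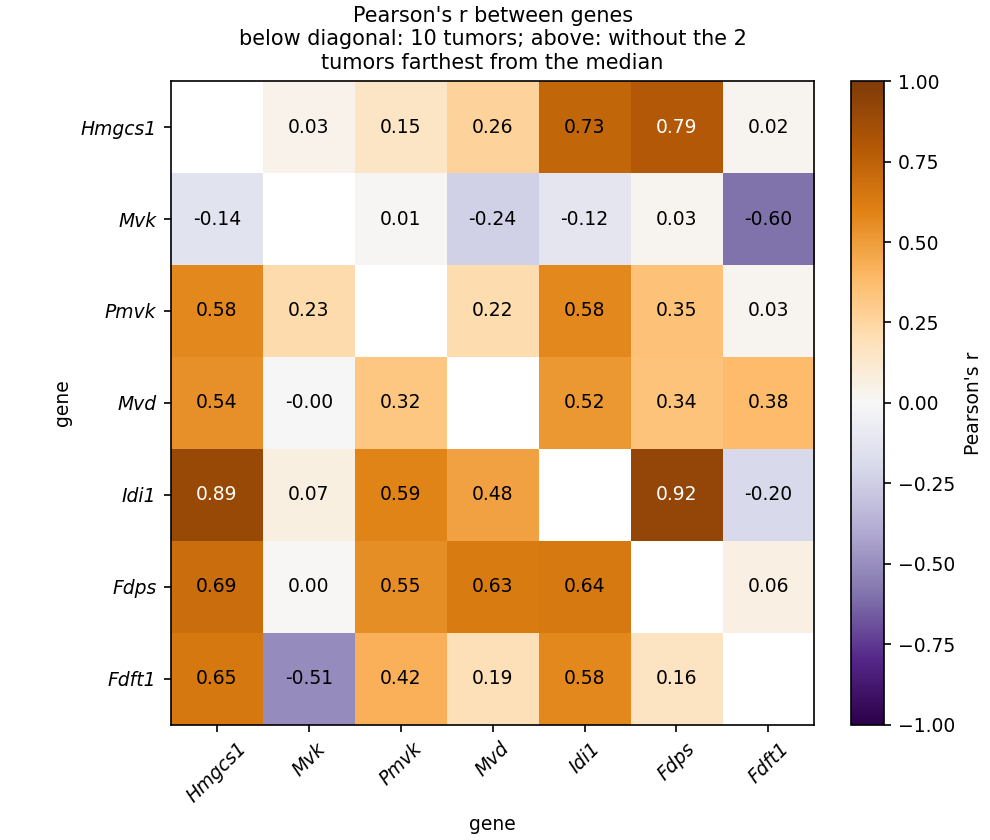
Pearson's r between the main probe sets of 7 mevalonate pathway genes (rows and columns), over 10 tumors below the diagonal and without the 2 tumors farthest from the median of the pair's first gene above it. Hmgcs1 with Idi1 is the highest below the diagonal (0.89) and Idi1 with Fdps above it (0.92), while the cells of Fdft1 above the diagonal run from -0.60 to 0.38.

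None of the enzymes after squalene differed past the test either, and over the tumors their mean, though not each of them, ran with that of the mevalonate genes. Of 10 measured genes of sterol synthesis after squalene, 5 had a positive and 5 a negative difference (median -0.01), and 0 passed an unadjusted p under 0.05 in either direction by limma. The lowest p-values were those of Hsd17b7, a sterol ketoreductase (log2 difference 0.26, standard error 0.14), and Tm7sf2, a sterol reductase (-0.48, standard error 0.29). The mean standardized signals of the mevalonate genes and of these 10 genes had r of 0.733 (rho = 0.806), 0.792 without Vhcl A49 and Vhcl A59 and 0.781 among tumors with ID prefix A. Within the groups it was 0.408 among the 5 Lov-treated and 0.773 among the 5 Vhcl-treated tumors. Gene by gene, r with the mean of the mevalonate genes was positive for 8 of the 10 and negative for Ebp, the sterol isomerase (-0.646, and -0.014 without Vhcl A49 and Vhcl A59), and Lss, the lanosterol synthase (-0.295, and 0.284 without these tumors). This is a description over 10 arrays that share their hybridization and scaling.

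Among 9090 genes with a mean signal at or above the median gene, the one most like the mean of the 7 mevalonate genes was Cyp51, the lanosterol demethylase of the same route (r = 0.942, rho = 0.964, and r = 0.825 without Vhcl A49 and Vhcl A59). Cyp51 had log2 signals of 6.68, 5.95, 6.37, 6.31 and 6.63 in the 5 Lov-treated tumors. They were 7.11, 5.50, 5.91, 7.70 and 6.19 in the 5 Vhcl-treated tumors. Its highest tumor, Vhcl A59, and its lowest, Vhcl A49, were also those of Hmgcs1 and Idi1. The next by r were Pak1ip1 (0.924), Fanca (0.913), Rnmt (0.903), 4930453N24Rik (0.900), Ube2k (0.891), Ddx1 (0.890), Emb (0.889), Abce1 (0.883) and Tbcd (0.878). The other enzymes of sterol synthesis after squalene were spread over the ranking, with Nsdhl at 50, Msmo1 at 91, Dhcr7 at 124, Sqle at 310, Sc5d at 565, Hsd17b7 at 783, Tm7sf2 at 1428, Lss at 6091 and Ebp at 8472. The lowest r were those of Rdm1 (-0.967), Rpl10a (-0.960), Ndufa6 (-0.954), Asic1 (-0.932) and Ezh1 (-0.927). Those of Rdm1, Rpl10a and Ndufa6 were larger in size than that of Cyp51.

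**Figure D5:**
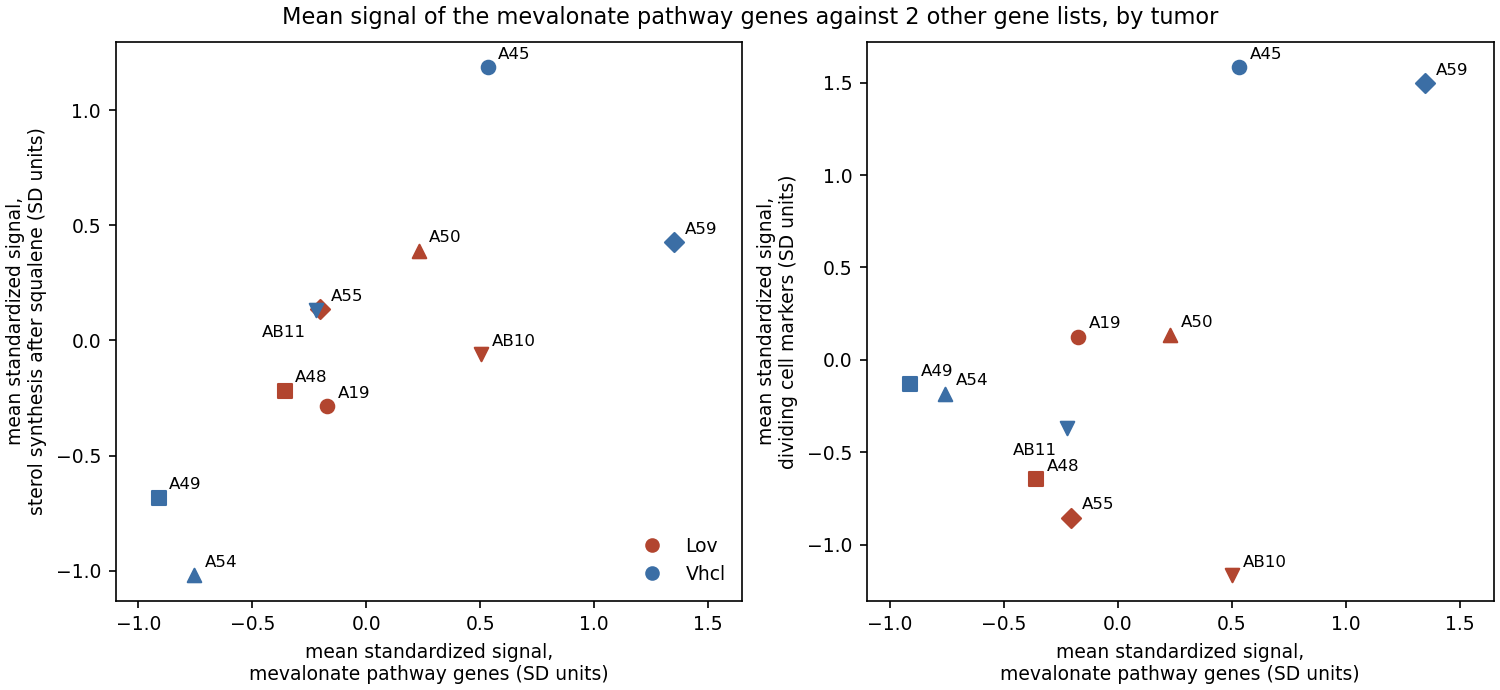
Mean standardized log2 signal (in SD units) of 7 mevalonate pathway genes (horizontal axis) against that of 10 genes of sterol synthesis after squalene (left panel, vertical axis) and of 4 dividing cell markers (right panel, vertical axis), with 1 point per tumor, red for Lov-treated and blue for Vhcl-treated. Vhcl A45 and Vhcl A59 are the highest tumors on the vertical axis of the right panel, and Vhcl A49 and Vhcl A54 lie at the lower left of the left panel.

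Among the 7 measured regulators of the pathway, 1 showed no overlap between the groups, Srebf1. Of 7 measured genes of the SREBP system, 6 had a positive difference (median 0.24). By limma's unadjusted p under 0.05, 1 was higher with Lov, where 3.50% of all genes were, and 0 were lower, where 2.75% were. Srebf1 encodes the SREBP-1 factors known mainly for fatty acid synthesis. Its log2 signals were 12.63, 12.99, 12.84, 12.97 and 12.83 in the 5 Lov-treated tumors, against 12.16, 12.16, 12.34, 11.71 and 12.11 in the 5 Vhcl-treated tumors. The lowest Lov-treated tumor lay above the highest Vhcl-treated one, where 0.693% of all genes showed no overlap in either direction. The exact 2-sided permutation p was 0.00794, the floor for this design, which any gene without overlap reaches. The log2 difference of 0.76 (standard error 0.12) did not pass over all probe sets (limma, adjusted p = 0.377). Scap, the escort of SREBP, had a log2 difference of 0.33 (standard error 0.16; limma, adjusted p = 0.958), and Srebf2, which encodes SREBP-2 itself, 0.24 (standard error 0.17; limma, adjusted p = 0.979). Insig1, which retains SREBP in the endoplasmic reticulum, had signals of 6.29 to 8.35 with Lov and 5.44 to 7.08 with Vhcl. Its log2 difference was 0.57 (standard error 0.46; limma, adjusted p = 0.986), and the groups overlapped. The mean standardized signal of the 7 regulators had r of 0.218 with that of the mevalonate genes (rho = 0.067), with -0.183 among the 5 Lov-treated and 0.407 among the 5 Vhcl-treated tumors.

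Genes known as SREBP-2 targets outside the pathway and genes that use its products gave few differences. Of 4 measured targets, 3 had a positive difference and 0 passed an unadjusted p under 0.05 by limma; the lowest p-values were those of Tmem97 (log2 difference -0.29, standard error 0.16) and Stard4 (0.14, standard error 0.17). Their mean standardized signal had r of 0.749 with that of the mevalonate genes (rho = 0.588, and r = 0.565 without Vhcl A49 and Vhcl A59). This r was 0.010 among the 5 Lov-treated and 0.857 among the 5 Vhcl-treated tumors. Of the 3 targets with a mean signal at or above the median gene, Stard4, a sterol carrier, had r of 0.836 with the mean of the mevalonate genes, Tmem97 0.263 and Fads2 -0.180. Of 10 measured genes of the prenyl diphosphate branches, 8 had a positive difference (median 0.14). At an unadjusted p under 0.05 by limma, 0 were lower with Lov, where 2.75% of all genes were, and 1 was higher, where 3.50% were. This was Dhdds, a subunit of the enzyme that makes the dolichol chain, with 7.40 to 7.75 in Lov-treated and 7.17 to 7.56 in Vhcl-treated tumors (log2 difference 0.26, standard error 0.11; limma, adjusted p = 0.932). Pdss2, a subunit of the enzyme for the ubiquinone side chain, had a log2 difference of 0.27 (standard error 0.16; limma, adjusted p = 0.971).

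Markers of dividing cells ran with the mevalonate genes among the Vhcl-treated tumors (r between the means of the lists = 0.874 over 5 tumors) and not among the Lov-treated tumors (r = -0.207 over 5 tumors). The differences of all 4 measured markers were negative, with a median of -0.49, and limma's unadjusted p was under 0.05 for 2 of them: Mki67 (log2 difference -0.63, standard error 0.25) and Top2a (-0.43, standard error 0.19; limma, adjusted p = 0.932 for each). At that threshold 2.75% of all genes were lower with Lov. The summed log2 signal of the 4 markers was 31.10 to 33.69 in Lov-treated and 32.73 to 36.56 in Vhcl-treated tumors, and no marker was below 5.74 in any tumor. Mki67 had 8.96 to 9.28 in Lov-treated tumors, against 10.39 in Vhcl A45, 10.44 in Vhcl A59 and 9.13 to 9.68 in the other Vhcl-treated tumors. Vhcl A59 and Vhcl A45 were also the tumors with the highest mean of the mevalonate genes. Over the 10 tumors r between the means of the 2 lists was 0.550 (rho = 0.418), and 0.310 without Vhcl A49 and Vhcl A59. The 5 leukocyte markers, 3 with a positive difference, had a summed log2 signal of 35.85 to 39.55 in Lov-treated and 36.78 to 38.99 in Vhcl-treated tumors, and r of their mean with that of the mevalonate genes was -0.574 (rho = -0.648), and -0.416 without these tumors. It was -0.824 among the 5 Lov-treated and -0.605 among the 5 Vhcl-treated tumors. Other marker lists gave r of like size within 1 group. For the adipocyte markers r was 0.825 among the 5 Vhcl-treated and -0.334 among the 5 Lov-treated tumors. For the fibroblast markers it was -0.842 among the Lov-treated and 0.040 among the Vhcl-treated tumors. The part of any of these cell types in the variation of the mevalonate genes was not tested.

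The tissue label was checked against 6 markers of luminal epithelium, of which Epcam, Krt8 and Krt18 had log2 signals of 11.60 to 12.73 in all 10 tumors. Cdh1 had 9.57 to 10.07 and Erbb2 7.76 to 8.44. Krt19 had 4.67 to 4.95 in Lov-treated and 4.27 to 8.24 in Vhcl-treated tumors, highest in Vhcl A59. Salivary gland and skeletal muscle markers were high in some tumors and not in others. Amy1, Bpifa2 and Smr3a reached 13.34 to 13.73 in Vhcl AB11 and 5.67 to 9.09 in Vhcl A59, and Bpifa2 had 6.82 in Lov A19. Acta1 had 10.26 in Lov A55, 10.44 in Vhcl A54, 10.57 in Vhcl A59 and 7.08 in Vhcl AB11. The summed log2 signal was 9.82 to 15.87 in Lov-treated and 10.15 to 40.63 in Vhcl-treated tumors for the 3 salivary markers, and 17.31 to 34.23 in Lov-treated and 16.41 to 34.97 in Vhcl-treated tumors for the 4 muscle markers. Their part in the signals of the mevalonate genes was not tested. Without Lov A19 and Vhcl AB11 together, 0 of the 7 genes passed an unadjusted p under 0.05 by limma. That fit kept Lov A55, Vhcl A54 and Vhcl A59, so it cannot address the muscle signal or the salivary signal of Vhcl A59.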

How the data were processed

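RNA of 10 mouse mammary tumors was measured on 1 Affymetrix array each. The deposited log2 signals were made by the authors with RMA in the affy package, per the labels and the methods, with versions not given in the sources used here. RMA quantile normalization gives the arrays a common distribution, so a shift shared by all transcripts cannot be seen. Signals carry 2 decimals and were used as deposited. Arrays have no sequencing depth, and their number limits the precision.

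Of 45101 probe sets, 64 controls were left out. Of the other 45037, 34945 had 1 gene symbol in GEO's platform annotation, 932 several and 9160 none. The 7 genes matched the RefSeq gene table (GRCm38.p6) by Entrez ID. Lov was compared with Vhcl by limma 3.58.1 in R 4.3.3 (empirical Bayes moderation, 2-sided, Benjamini-Hochberg over all 45037), and single genes by exact permutation over the 252 assignments of 5 of 10 tumors. Correlations were tested with 100000 permutations (NumPy 2.4.6, with ranks from SciPy 1.17.1), within groups where group means were removed. The limma test was also run on simulated arrays with known changes. Pairs of all 8 genes had been planned, and the 21 pairs of the 7 analysed genes were tested.

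Not every enzyme of the route is reported here. The 8 genes and all gene lists were chosen with earlier results of these data known. Named by rule were the 8 genes, the 2 genes of lowest p in each list and any without overlap, and the 10 genes most and 5 least correlated with the mean of the 7. Others, such as Srebf2 and Insig1, were named outside this rule. Alternatives were a trended, robust prior, a 2-group test without moderation, array weights, centering, further quantile normalization, the tumor ID prefix or beta-actin signal as a covariate, other choices of probe set, linear means and leaving out tumors.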

Additional observations from a re-analysis of the deposited data

Results flagged for a closer look

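In 4 of the 36 groups of 5 tumors examined (18 probe sets in each treatment), 1 tumor was set apart from the other 4 by more than Dixon's criterion at the 95% level allows; chance sets a tumor apart in about 1 of 20 groups. Pmvk, the phosphomevalonate kinase, was 7.60 in Vhcl A59, and the gap to the next Vhcl-treated tumor was 0.74 of the group's range. Fdft1, squalene synthase, was 8.55 in Lov A19 by its main probe set, with a gap of 0.797 of the range. By 1438919_x_at Fdft1 was 5.55 in Vhcl A45 (0.719 of the range), and by 1438918_at it was 5.38 in Lov A50 (0.831 of the range). The 3 probe sets of Fdft1 thus set apart 3 different tumors.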

How the results depend on the processing

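The median log2 difference over the 7 genes, -0.02, moved by less than the spread between tumors under all 21 alternatives run, and 0 genes passed an unadjusted p under 0.05 in 19 of the 20 alternatives tested. Leaving out 1 tumor at a time gave 0 to 1 genes, the 1 being Fdft1 without Vhcl A49. The small differences had no firm sign. With beta-actin as a covariate the log2 difference was 0.006 for Hmgcs1, 0.097 for Pmvk, 0.007 for Mvd and 0.064 for Fdft1. Mvd was 0.050 without Lov A19 and Vhcl AB11, 0.019 as the mean of its probe sets and 0.054 by the unshared one. Leaving out 1 tumor, the log2 difference ran from -0.213 to 0.045 for Hmgcs1, -0.059 to 0.081 for Pmvk, -0.101 to 0.065 for Mvd, -0.045 to 0.300 for Idi1 and -0.349 to 0.013 for Fdps. The 1 pair past adjustment became 0 pairs with Spearman's rho, with group means removed, without the 2 farthest tumors and, chosen after seeing the data, with prefix A tumors only, and 0 to 3 pairs on leaving out 1 tumor. The count of genes with the Lov range inside the Vhcl range was 3 to 6 on leaving out 1 tumor and 3 without Vhcl A49 and Vhcl A59, settings chosen after seeing the data. No paired analysis was possible because the groups share no replicate numbers.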

Other observations

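The genes that supply acetyl-CoA to the pathway, and those of ketone body use, were also compared. Of 6 measured, 2 had a positive and 4 a negative log2 difference (median -0.09), and 0 passed an unadjusted p under 0.05 by limma in either direction. Slc25a1, the mitochondrial citrate carrier, had a log2 difference of 0.30 (standard error 0.14; limma, adjusted p = 0.953). Acly, the enzyme that cleaves citrate to acetyl-CoA, had log2 signals of 9.82 to 9.93 in Lov-treated tumors and 9.67 to 11.14 in Vhcl-treated tumors. Its highest tumor was Vhcl A49, the one in which Hmgcs1, Idi1 and Fdft1 were lowest. The log2 difference of Acly was -0.32 (standard error 0.23; limma, adjusted p = 0.981).

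Among markers of other cell types, 1 of 5 adipocyte markers was lower with Lov at an unadjusted p under 0.05, Fabp4 (log2 difference -0.86, standard error 0.37; limma, adjusted p = 0.932), and Lep had a difference of 0.11. Of 5 leukocyte markers 1 was higher, Csf1r, the receptor of macrophages (0.43, standard error 0.15; limma, adjusted p = 0.928), while Cd68 had -0.40 (standard error 0.29). At that threshold 3.50% of all genes were higher with Lov and 2.75% lower. None of the 4 endothelial, 4 fibroblast, 4 skeletal muscle or 3 salivary gland markers and none of the 6 luminal epithelium markers passed an unadjusted p under 0.05 by limma. Among these the lowest p-values were those of Pecam1 and Cdh5 (0.09 and 0.11), Dcn and Col1a1 (-0.83 and -0.57), Tnnt3 and Acta1 (-0.90 and -1.49), Amy1 and Smr3a (-2.43 and -2.38), and Krt18 and Krt8 (-0.31 and -0.20), each value being a log2 difference of Lov minus Vhcl.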
